A study of Rattus norvegicus with 6 samples.

Results

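The genes described here are those of the interleukin 6 (IL-6) family receptors and of the Jak and Stat3 signaling they start: Il6, Il6st, Il6r, Il11ra1, Osmr, Lifr, Jak1, Jak2, Stat3 and Socs3. They were taken as the probe sets annotated to exactly 1 of these 10 symbols, which gave 15 of the 31042 probe sets tested and covered 9 of the 10 genes. No probe set was annotated to Osmr, the oncostatin M receptor, so it was not analysed here. IEC-6 is an established rat line widely used as a culture model of intestinal crypt epithelium. ShSuz12 cells carried a lentiviral short hairpin RNA against Suz12, and ShControl cells a scrambled hairpin. Both were puromycin-selected populations, 1 per group, grown in medium with serum, and the labels name no added cytokine. RNA of 3 independent experiments per group was hybridized to 6 rat Affymetrix arrays, and values are log2 signals summarized over each probe set. The sources used here do not say how dense the cells for the arrays were.

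IL-6 and its relatives bind a receptor chain of their own (Il6r, Il11ra1) and then recruit Il6st (gp130), the signaling chain they share. Leukemia inhibitory factor and oncostatin M pair gp130 with Lifr or Osmr. The Janus kinases Jak1 and Jak2 sit on these chains and phosphorylate them and Stat3, which enters the nucleus and activates target genes. One of these targets, Socs3, binds gp130 and the kinases and shuts the signal down. In the intestinal epithelium the pathway is known for its part in crypt cell proliferation, repair and inflammation. The arrays measured RNA, so receptor protein and Stat3 phosphorylation are not part of these values.

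The hairpin sequence is shown because it defines the comparison. The bases before the start of Il6 and Stat3 are shown because these are the ligand and the transcription factor among the genes described here. Both differed in RNA. In Il6 the capitals mark TGACGTCA, the letters of a cAMP response element, and then the 10 letters of an NF-kB motif. Both kinds of site are known from the human and mouse promoters. In Stat3 they mark each CG dinucleotide. The promoter sequences are from RefSeq (GRCr8) and end at the base before the annotated start, Il6 at chr4:5894576-5894825 on the minus strand and Stat3 at chr10:86363360-86363609 on the minus strand.
Suz12 hairpin target: gctgacaatcaaatgaatcat
Il6 promoter: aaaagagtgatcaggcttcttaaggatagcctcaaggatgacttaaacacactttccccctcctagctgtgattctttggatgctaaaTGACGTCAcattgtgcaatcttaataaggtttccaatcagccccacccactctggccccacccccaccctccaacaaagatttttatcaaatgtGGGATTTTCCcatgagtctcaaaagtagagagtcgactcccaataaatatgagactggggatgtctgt
Stat3 promoter: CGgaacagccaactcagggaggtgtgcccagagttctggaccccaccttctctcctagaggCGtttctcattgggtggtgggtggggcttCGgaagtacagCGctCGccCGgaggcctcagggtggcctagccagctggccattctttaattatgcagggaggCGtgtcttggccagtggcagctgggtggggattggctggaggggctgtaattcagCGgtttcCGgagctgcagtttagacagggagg

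The 250 bases before the start were found for 8 of the 10 genes. In Il6 the cAMP response element began 162 bases before the annotated start and the NF-kB motif 68 bases before it. On either strand, TGACGTCA was in 1.59% of the 33469 rat promoters and this NF-kB motif in 0.0627%. The search took these exact letters only, so the second share does not cover other forms of the NF-kB site. The Stat binding letters TTCNNNGAA were in 7.67% of all these promoters and in 0 of the 8, which says only that these letters are not in these windows. The genes also differed in CG content. Il6 had 2 CG dinucleotides, Lifr had 3 and Stat3 had 9, while Osmr had 22, Socs3 24, Il6r 29 and Jak2 39, against a median of 5 over all promoters. The Il6st window, with 3, ended in the letters of a splice acceptor and may not be the promoter of the full transcript. Il6st, Lifr, Osmr and Il6r all lie on chromosome 2.

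Suz12, the subunit of Polycomb repressive complex 2 (PRC2) that the hairpin targets, had log2 values of 5.82, 5.77 and 5.91 in ShSuz12 cells, against 8.45, 8.55 and 8.77 in ShControl cells. The log2 fold change was -2.76 (standard error 0.09, adjusted p = 2.78e-07 from limma). The array medians were 6.26 to 6.27 in ShSuz12 samples and 6.15 to 6.17 in ShControl samples. Over all probe sets the median difference was -0.15 on the log2 scale with these medians subtracted and -0.05 as deposited.

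Of the 15 member probe sets, 10 were higher in ShSuz12 cells at an adjusted p under 0.05 from limma, where 14.8% of all probe sets were (34.3% passed in either direction). None was lower, at an adjusted or an unadjusted p under 0.05 by limma or by the methods' t-test (0 of 15), where 19.5% of all probe sets were lower. At 2-fold or more, the limit that the study used, 5 of the 15 were higher, against 3.1% of all probe sets, and 0 were lower, against 0.396%. The 5 were the 4 probe sets of Il6st and the 1 of Il11ra1. In 12 of the 15 every ShSuz12 value lay above every ShControl value, against 19.4% of all probe sets, and in 0 every value lay below, against 28.1%. By the brightest probe set of each gene, 6 of the 9 genes passed, all higher, where 40.5% of all genes passed in either direction. The groups did not overlap for 8 of the 9, all higher, against 22.2% of all genes that were higher and 33.4% that were lower without overlap. Probe sets of 1 gene read the same RNA and are not replicates.

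**Figure D1:**
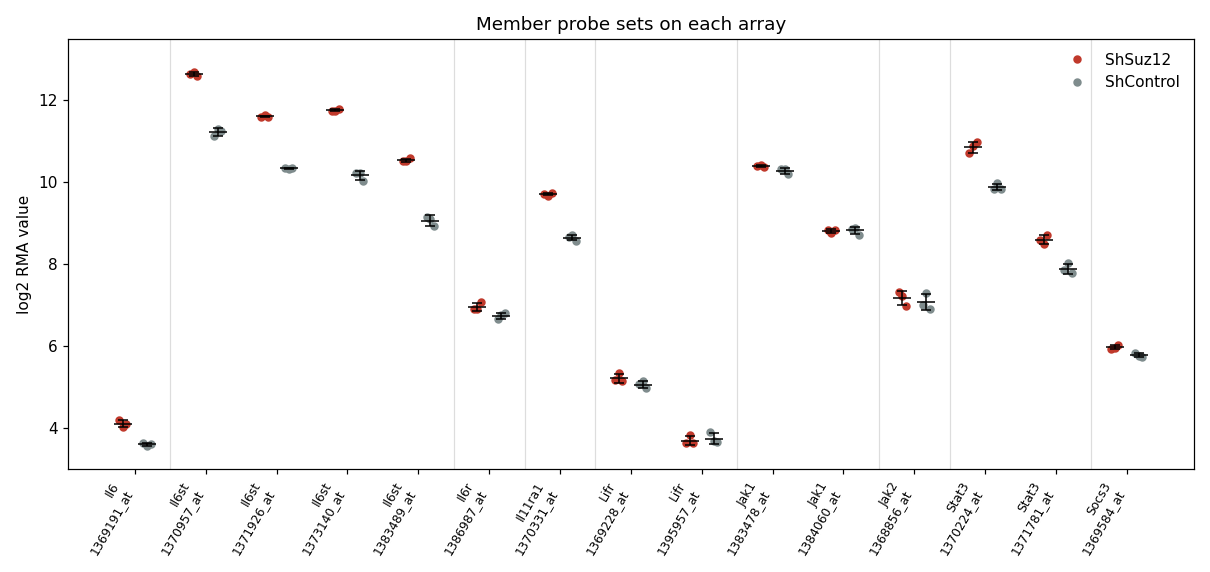
Log2 value (vertical axis) of each of the 15 member probe sets on each array, red for ShSuz12 and grey for ShControl samples, and black bars for mean and SD (n = 3). The groups stand furthest apart for Il6st, Il11ra1 and Stat3 and overlap for 1 Lifr probe set, 1 Jak1 probe set and Jak2, and heights cannot be compared between probe sets.

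**Figure D2:**
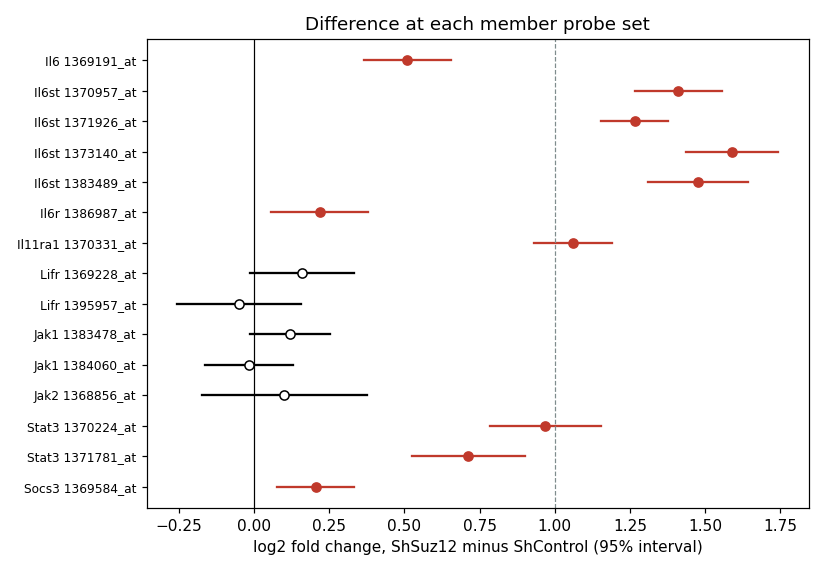
Log2 fold change of ShSuz12 over ShControl cells at each member probe set with its 95% interval, red and filled where the adjusted p was under 0.05, hollow where it was not. The dashed line marks 2-fold, which the 4 Il6st probe sets exceed with their whole interval.

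Il6, the ligand that gives the family its name, was higher in ShSuz12 cells but dim on every array. The signal was 4.20, 4.02 and 4.11 on the log2 scale in ShSuz12 cells, against 3.64, 3.55 and 3.62 in ShControl cells. The groups did not overlap, and the difference was 1.42-fold with a 95% interval of 1.29 to 1.57 (adjusted p = 4.65e-04 from limma). The means lay at percentile 18.2 of the array in ShSuz12 cells and at percentile 7.67 in ShControl cells, where RMA compresses differences, so the size of the change is uncertain.
Among the 8 of 11 family ligands with a probe set, Il6 was the 1 that rose. The 1 that fell was Cntf, ciliary neurotrophic factor, with log2 values of 6.49, 6.26 and 6.59 in ShSuz12 cells and of 6.76, 6.79 and 6.70 in ShControl cells (log2 fold change -0.30, adjusted p = 0.0270 from limma). Lif, Osm, Il11, Clcf1, Ctf1 and Ebi3 did not pass, with differences from -0.35 (Ctf1, adjusted p = 0.0684) to 0.19 (Clcf1, adjusted p = 0.128). All of these but Ctf1 were dim, from percentile 10.1 (Clcf1) to percentile 33.4 (Il11), both in ShControl cells. RMA compresses differences there, so the size of any change is uncertain. The median of the ligand list was -0.05, the same as that of all 14217 genes (-0.05). Of all genes, 17.1% were higher and 23.3% lower.

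Il6st, which encodes gp130, was higher at each of its 4 probe sets. The brightest had log2 values of 12.63, 12.69 and 12.60 in ShSuz12 cells, against 11.13, 11.30 and 11.26 in ShControl cells. All 3 ShSuz12 values were at least 1.30 above the highest ShControl value. That is a 2.66-fold difference (95% interval 2.40 to 2.94, adjusted p = 1.71e-06 from limma).
A second Il6st probe set gave 11.74, 11.74 and 11.79 in ShSuz12 cells and 10.24, 10.23 and 10.04 in ShControl cells, 3.01-fold higher (95% interval 2.70 to 3.35). Its groups lay further apart than those of any other of the 15 probe sets. The dimmest gave 10.53, 10.52 and 10.58 in ShSuz12 cells and 9.16, 9.12 and 8.92 in ShControl cells (2.78-fold). The remaining Il6st probe set gave 11.60, 11.63 and 11.59 in ShSuz12 cells and 10.34, 10.33 and 10.36 in ShControl cells (2.41-fold, 95% interval 2.22 to 2.60). The probe sets thus gave the same direction on every array but not the same size, and the intervals of the largest and the smallest did not overlap. ShControl replicate 3 was the lowest array at 2 of the 4, and leaving out any 1 array gave log2 fold changes of 1.26 to 1.62 over the 4.

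Il11ra1, the receptor chain for interleukin 11, had log2 values of 9.72, 9.68 and 9.74 in ShSuz12 cells, against 8.67, 8.70 and 8.58 in ShControl cells. The groups were 0.97 apart at their nearest values. The difference was 2.09-fold (95% interval 1.91 to 2.28, adjusted p = 4.50e-06 from limma), so that the interval reached below 2-fold. With the array medians subtracted the log2 fold change was 0.96, just under 2-fold. Il11 itself, the ligand of this chain, had log2 fold change -0.14 (adjusted p = 0.388).
Il6r, the chain that binds IL-6, differed far less. Its log2 values were 6.91, 6.90 and 7.07 in ShSuz12 cells and 6.66, 6.75 and 6.81 in ShControl cells, with the nearest values of the groups 0.09 apart. The difference was 1.16-fold (95% interval 1.04 to 1.30, adjusted p = 0.0435 from limma). This call was lost without ShControl replicate 1 or 2 or without any 1 of the ShSuz12 arrays (adjusted p = 0.0613 to 0.133 from limma), after median subtraction (adjusted p = 0.181) or a second quantile normalization (adjusted p = 0.100), and by the methods' t-test after Benjamini-Hochberg adjustment (adjusted p = 0.106).

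Lifr, which pairs with gp130 in the receptor for leukemia inhibitory factor, did not pass at either of its probe sets. The brighter gave 5.17, 5.35 and 5.15 in ShSuz12 cells, against 5.07, 5.14 and 4.97 in ShControl cells, groups that barely separated. The ratio was 1.12 with a 95% interval of 0.991 to 1.26 (adjusted p = 0.142 from limma). The dimmer probe set had 3.63, 3.83 and 3.63 in ShSuz12 cells and 3.91, 3.68 and 3.65 in ShControl cells, which overlapped (ratio 0.966, 95% interval 0.838 to 1.11). It lay at percentile 9.80 in ShSuz12 cells and at percentile 10.5 in ShControl cells. Both probe sets were dim, where RMA compresses differences, so the intervals do not bound the change in Lifr RNA.
Over the 6 of 8 family receptors with a probe set, 3 were higher (Il6st, Il11ra1 and Il6r) and 0 were lower by limma at an adjusted p or an unadjusted p under 0.05. Of all genes, 17.1% were higher and 23.3% lower at an adjusted p under 0.05. Cntfr, the chain for ciliary neurotrophic factor, and Il27ra had differences of 0.07 and -0.01 on the log2 scale (adjusted p = 0.515 and 0.920 from limma). Il27ra was dim, at percentile 11.8 in both groups, so a change in its RNA may be hidden. The median of the receptor list was 0.19.

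Jak1 and Jak2, the kinases bound to these receptors, did not pass. Jak1 had log2 values of 10.39, 10.43 and 10.37 in ShSuz12 cells and of 10.33, 10.31 and 10.19 in ShControl cells at its brighter probe set (ratio 1.09, 95% interval 0.990 to 1.19, adjusted p = 0.154 from limma). It passed after a second quantile normalization (adjusted p = 0.0465 from limma) and with an intensity trend (adjusted p = 0.0488). At the other Jak1 probe set the values were 8.83, 8.76 and 8.83 in ShSuz12 cells and 8.86, 8.89 and 8.72 in ShControl cells, and the groups overlapped (ratio 0.988, 95% interval 0.893 to 1.09).
Jak2 varied more between experiments than any other member probe set. It gave 7.32, 7.22 and 6.98 in ShSuz12 cells and 7.01, 7.29 and 6.91 in ShControl cells, with overlapping groups (ratio 1.07, 95% interval 0.886 to 1.30, adjusted p = 0.565 from limma). Of the 4 Janus kinases measured, the 1 that passed was Jak3, which pairs with the common gamma chain of lymphocyte cytokine receptors. Over all genes 40.5% passed in either direction. Jak3 had log2 values of 6.74, 6.57 and 6.67 in ShSuz12 cells and of 5.85, 6.08 and 5.56 in ShControl cells (1.78-fold, adjusted p = 0.00123 from limma). The gene for that gamma chain, Il2rg, had a log2 fold change of -0.19 and did not pass (adjusted p = 0.140).

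Stat3, the transcription factor of the pathway, was higher at both probe sets. The brighter had log2 values of 10.71, 10.88 and 10.98 in ShSuz12 cells, against 9.85, 9.98 and 9.84 in ShControl cells. Its difference was 1.96-fold (95% interval 1.72 to 2.23, adjusted p = 5.56e-05 from limma). The dimmer probe set had 8.60, 8.50 and 8.71 in ShSuz12 cells, against 7.86, 8.03 and 7.78 in ShControl cells, and was 1.64-fold higher (95% interval 1.44 to 1.87, adjusted p = 3.25e-04). The groups did not overlap at either, but neither probe set reached 2-fold as deposited. The brighter passed 2-fold after a second quantile normalization (log2 fold change 1.01) and without ShControl replicate 2 (1.01) or ShSuz12 replicate 1 (1.04). Without any 1 array, the log2 fold change stayed between 0.66 and 1.04 over both.
Among the other Stat genes measured, Stat2, a factor of the response to type I interferon, had log2 values of 8.66, 8.59 and 8.61 in ShSuz12 cells and of 7.96, 8.16 and 7.94 in ShControl cells. It rose by 0.60 on the log2 scale (adjusted p = 3.61e-04 from limma) and by 0.49 at its dimmer probe set. Stat4, the factor of interleukin 12 signaling, fell by 0.42 (adjusted p = 0.00156). Stat5a, Stat5b and Stat6 did not pass and had values of 0.06, -0.11 and -0.10.

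Socs3, the inhibitor induced by Stat3, was slightly higher. Its log2 values were 5.94, 5.96 and 6.03 in ShSuz12 cells, against 5.83, 5.76 and 5.73 in ShControl cells. The groups did not overlap, with a difference of 1.15-fold (95% interval 1.05 to 1.26, adjusted p = 0.0225 from limma). The call was lost without ShControl replicate 3, ShSuz12 replicate 2 or ShSuz12 replicate 3 (adjusted p = 0.0551 to 0.0799 from limma), after median subtraction (adjusted p = 0.154) or a second quantile normalization (adjusted p = 0.164), and with an intensity trend (adjusted p = 0.0588).
Among 15 of 16 inhibitors of Jak and Stat signaling with a probe set, 3 were higher, 3 were lower and 9 did not pass, with a median of -0.06. These counts are near the shares over all genes, 17.1% higher and 23.3% lower. The largest differences in the list were falls. Socs6 had log2 values of 8.19, 8.06 and 8.09 in ShSuz12 cells, against 8.59, 8.70 and 8.63 in ShControl cells (-0.53, adjusted p = 3.15e-04 from limma). Sh2b3, the adaptor Lnk that restrains cytokine receptor signaling, fell by 0.52 on the log2 scale (adjusted p = 3.14e-04). The remaining passing members, named after their values were seen, were Cish (0.42) and Socs5 (0.24), which rose, and the phosphatase Ptpn2, which fell by 0.25. The last did not pass at its dimmer probe set (-0.18, adjusted p = 0.221).
Downstream of gp130, 7 adaptors that lead to Ras and PI3K were measured, of which 2 were higher, 1 was lower and 4 did not pass. Over all genes 17.1% were higher and 23.3% lower. Gab1, a docking protein for Ptpn11 and PI3K, had log2 values of 8.94, 8.93 and 8.92 in ShSuz12 cells and of 9.30, 9.39 and 9.41 in ShControl cells (-0.44, adjusted p = 4.34e-04 from limma). Shc1, which links receptors to Grb2, rose by 0.39 (adjusted p = 0.00488), and Pik3r1, a regulatory subunit of PI3K named after its values were seen, by 0.34 (adjusted p = 0.0137). Ptpn11 and Grb2 themselves had values of 0.11 and 0.01 (adjusted p = 0.223 and 0.934).

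Of 28 textbook target genes of Stat3, 27 were measured, and 16 of them were higher, 3 were lower and 8 did not pass. Higher genes were 17.1% and lower genes 23.3% of all genes by their brightest probe set. The median log2 fold change of the list was 0.35, against -0.05 for all genes. Some of the list also answer to NF-kB or C/EBP factors, and Il6st, Stat3 and Socs3 are counted in it. The list was drawn up with earlier results of these data known, so its counts are not an independent test of Stat3 output.
The largest rises were acute phase genes. Lbp, the lipopolysaccharide binding protein, had log2 values of 11.31, 11.29 and 11.27 in ShSuz12 cells, against 5.90, 6.09 and 6.08 in ShControl cells, which is 38.4-fold (95% interval 34.6 to 42.7, adjusted p = 6.46e-09 from limma). A2m, alpha-2-macroglobulin, a main acute phase protein of the rat, had 9.36, 9.36 and 9.35 in ShSuz12 cells, against 4.11, 4.46 and 4.30 in ShControl cells (33.5-fold, adjusted p = 1.55e-08). Its ShControl values were at percentile 21.9 of the array, so the fold change is uncertain in size. Neither gene's groups came near each other.
Lcn2, lipocalin 2, which binds bacterial siderophores, had 6.55, 7.18 and 6.73 in ShSuz12 cells and 4.54, 4.77 and 4.88 in ShControl cells (4.24-fold, adjusted p = 3.48e-05 from limma). Its ShControl values were at percentile 30.1 of the array, so this fold change is also uncertain in size. Bcl3, an atypical inhibitor of NF-kB, rose 2.56-fold at its brightest probe set (adjusted p = 4.00e-06), by 0.65 on the log2 scale at a second, and had 0.25 at the remaining one, which did not pass (adjusted p = 0.114). Hp (haptoglobin), another acute phase protein, rose by 0.79 (adjusted p = 2.55e-04). The other targets that rose, named after their values were seen, included the transcription factors Cebpd (0.98), Fos (0.79), Cebpb (0.62), Junb (0.48) and Hif1a (0.30), the protease inhibitor Timp1 (0.95) and the adhesion molecule Icam1 (0.76). The fibrinogen genes were dim and did not move together. The fibrinogen chain Fgg rose by 0.35, Fgb had 0.20 (adjusted p = 0.106) and Fga fell by 0.35 at its brighter probe set and had -0.09 at the other (adjusted p = 0.206). The antimicrobial lectins Reg3b and Reg3g, targets in gut epithelium, had -0.11 and -0.19 and did not pass. Both were dim, at percentiles 27.1 and 8.78 in ShSuz12 cells, so a change in their RNA may be hidden.
Besides Fga, the target genes that fell, named after their values were seen, were Myc and Birc5. Myc, a transcription factor of cell growth, had log2 values of 8.42, 8.27 and 8.43 in ShSuz12 cells, against 9.25, 9.17 and 9.20 in ShControl cells (-0.84, adjusted p = 3.09e-05 from limma). Birc5 (survivin), an inhibitor of apoptosis, fell by 0.48 (adjusted p = 6.64e-04). Ccnd1 (cyclin D1), Mcl1, Bcl2l1 and Pim1 had -0.16, -0.02, -0.08 and -0.12, and none of these 4 passed.

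**Figure D3:**
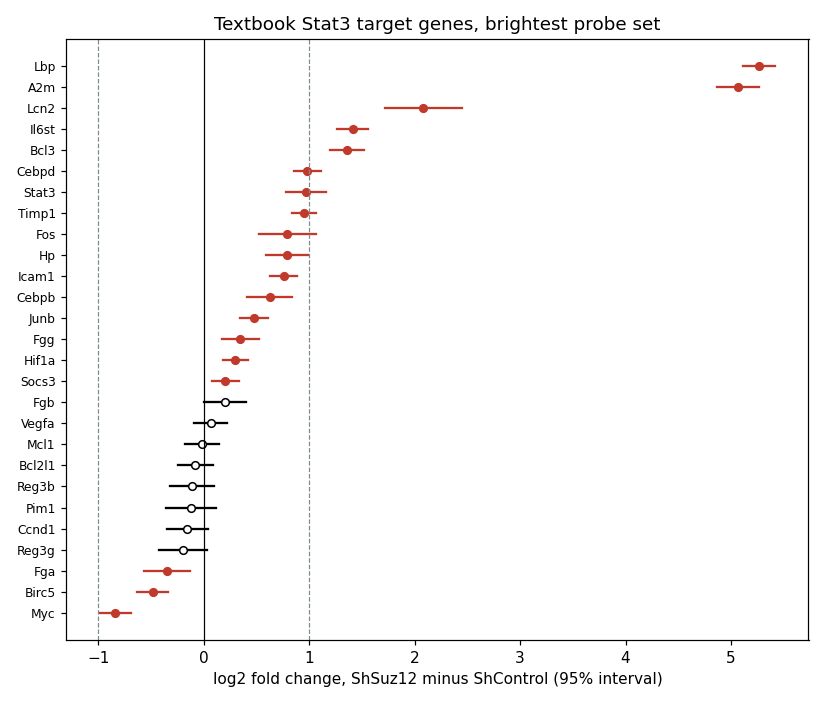
Log2 fold change of ShSuz12 over ShControl cells, with its 95% interval, for the 27 measured textbook targets of Stat3, each by its brightest probe set (red and filled, adjusted p under 0.05). Dashed lines mark 2-fold, and Lbp and A2m stand far to the right at 5.26 and 5.07 while Myc is lowest at -0.84.

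Over all pathway genes together, members included, 70 of 77 were measured, 25 were higher, 9 were lower and 36 did not pass. The Stat3 target list held 16 of the 25. Without the members, 61 of 67 were measured, 19 were higher and 9 lower. Their median log2 fold change was 0.01, against -0.05 for all genes. Of all genes by their brightest probe set, 17.1% were higher and 23.3% lower. With the array medians subtracted the pathway counts became 22 higher and 18 lower, because the median of all probe sets moved down. Of the 25, 6 were at least 2-fold higher, against 3.82% of all genes, and 0 were at least 2-fold lower, against 0.422%, the largest fall being that of Myc (-0.84).

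**Figure D4:**
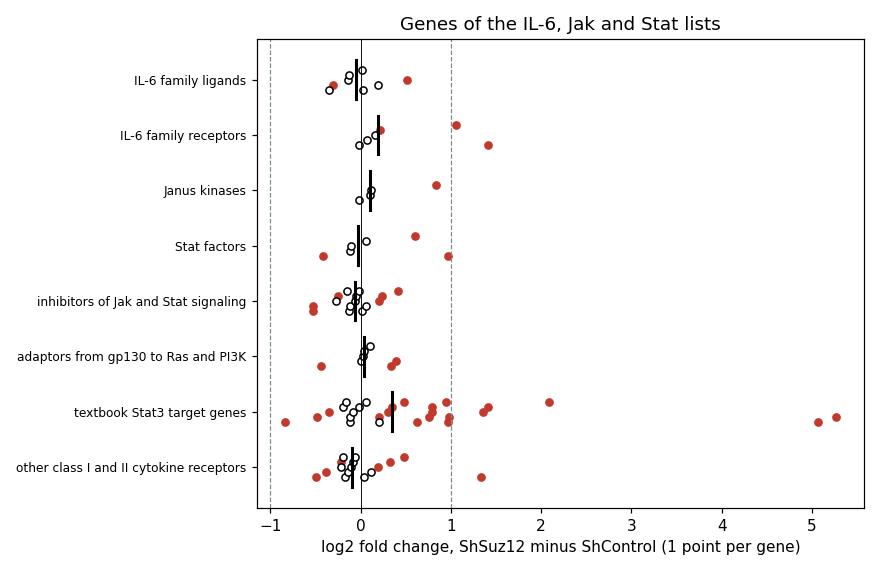
Log2 fold change of ShSuz12 over ShControl cells for each measured gene of 8 lists, 1 point per gene by its brightest probe set (red and filled, adjusted p under 0.05) with list medians as black bars. The median of the Stat3 target list is 0.35, that of the ligand list is -0.05, and the points beyond the dashed 2-fold lines lie on the higher side.

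Outside the pathway, the 3 genes whose profile over the 6 arrays was nearest to that of the brightest Il6st probe set were Slit2, Chchd7 and Sfmbt2. Their centred log2 values differed from those of Il6st by a root mean square of 0.04 each. Slit2, a secreted axon guidance ligand, had 9.82, 9.75 and 9.72 in ShSuz12 cells and 8.28, 8.46 and 8.39 in ShControl cells. Chchd7, a mitochondrial protein, and Sfmbt2, a Polycomb group protein, rose by 1.39 and 1.38. At their dimmer probe sets they rose less, by 0.71 and 0.75. Since the arrays fall into 2 groups, this measure mostly reflects the size of the difference. A dim probe set of Slit2 had -0.03 (adjusted p = 0.740).

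Markers of other cell types were set beside these values. Over all genes by their brightest probe set, 17.1% were higher and 23.3% lower. Of 13 fibroblast and smooth muscle markers 7 were higher and 1 was lower, with log2 fold changes of 2.46, 2.34 and 2.33 for Lum, Col1a2 and Col3a1. Lum was at percentile 8.99 in ShControl cells, so its size is uncertain. The smooth muscle actin gene Acta2 fell by 0.66 (adjusted p = 4.22e-05 from limma), and Vim, Pdgfra, Thy1, Col6a3 and Col1a1 did not pass. The summed signal of the list was 39214 to 40780 in ShSuz12 samples and 26191 to 28958 in ShControl samples. Without Col3a1, a sum added after the values were seen, it was 28038 to 29564 in ShSuz12 samples and 24133 to 26529 in ShControl samples. Of 12 leukocyte markers 0 were higher by limma at an adjusted p under 0.05 (1, Lyz2, at an unadjusted p under 0.05) and 4 were lower, with a summed signal of 1175 to 1242 in ShSuz12 samples and of 1382 to 1429 in ShControl samples. Ptprc, the marker of all leukocytes, was at percentile 10.1 in ShSuz12 cells and at percentile 13.6 in ShControl cells. Of 7 endothelial markers 2 were higher, and their summed signal was 190 to 201 in ShSuz12 samples and 161 to 172 in ShControl samples.
Of 12 epithelial markers 2 were higher and 2 were lower, beside 17.1% and 23.3% of all genes. The intestinal transcription factor gene Cdx2 and the keratin gene Krt19 rose by 1.56 and 1.19 on the log2 scale, while Cdh1 and Krt8 fell by 0.76 and 0.41. The summed signal was 4687 to 4854 in ShSuz12 samples and 7057 to 7907 in ShControl samples, and without Cdh1 it was 1110 to 1158 in ShSuz12 samples and 1205 to 1278 in ShControl samples. Cdh1 (E-cadherin) was at percentile 98.4 in ShSuz12 cells and at percentile 99.3 in ShControl cells, while the epithelial markers Epcam and Krt18 were in the lowest 10 percent of the array in both groups. No marker is at 0, since RMA gives every probe set a value above it. The part of these markers in the results for the IL-6 family was not tested, and fewer cells of a type cannot be told apart from less RNA per cell.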

How the data were processed

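The authors hybridized RNA of 3 ShSuz12 and 3 ShControl samples to Affymetrix rat genome arrays and deposited log2 values computed by RMA within FlexArray 1.6.1. RMA corrects background, normalizes arrays to each other and summarizes each probe set as 1 log2 value. Its version was not stated in the sources used here. RMA compresses differences between dim probe sets. Scanner files and detection calls were not used here, and percentile filters served as alternatives.

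After 57 control probe sets were left out, 31042 probe sets were compared in R 4.3.3 by limma 3.58.1 (lmFit, then eBayes; two-sided, unpaired), and p-values were Benjamini-Hochberg adjusted across the whole table. The study's own Student's test was run as an alternative. A probe set passed at an adjusted p under 0.05, and 2-fold was a second limit. Intervals are 95% intervals of the limma fit. With 3 arrays per group, 1 cell population each, p-values measure the spread between experiments only, and an exact permutation test could not go below p = 0.1. The test was tried on simulated data first.

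Symbols came from the platform annotation, updated through the GRCr8 gene table (0 changed): 20826 probe sets had 1 symbol and 436 several. A gene in a list was counted by its brightest probe set. The members, gene lists and the rule for named genes (all members, up to 5 genes per list with the largest change at 2-fold or at least 2 that passed, and the 3 nearest profiles to Il6st) were chosen with earlier results of these data known. Sequences came from RefSeq tables. Figures were drawn with matplotlib 3.10.9.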

Additional observations from a re-analysis of the deposited data

How the results depend on the processing

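The number of higher member probe sets was 10 of 15. It was 9 by the methods' t-test with Benjamini-Hochberg adjustment and 10 without it, 8 after median subtraction, 9 after a second quantile normalization, 10 with an intensity trend (where Socs3 lost its call and Jak1 gained one) and 8 to 9 without any 1 array. A filter at the 40th percentile left 9 of 12 and at the 60th percentile 7 of 10. With the 2-fold limit it was 5, and with each gene's probe sets averaged it was 6 of 9 genes. In these settings 0 were lower at an adjusted p under 0.05 by limma, and 0 by the t-test with or without adjustment. Il6r, Socs3 and Jak1 were the members whose side of the adjusted p threshold moved. Around 2-fold, Il11ra1 dropped below it after median subtraction (log2 fold change 0.96), and the brighter Stat3 probe set rose above it after a second quantile normalization (1.01) and without ShControl replicate 2 or ShSuz12 replicate 1.

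Of the 70 pathway genes, members included, 25 were higher and 9 lower, where 17.1% of all genes were higher and 23.3% lower. Among the 61 that are not members, 19 were higher and 9 lower. Without any 1 array the pathway counts were 22 to 24 higher and 7 to 9 lower. With median subtraction 22 were higher and 18 lower, which is 55.0% higher among passing genes, against 73.5% as deposited. Over all probe sets the same share was 23.3% after subtraction and 43.2% as deposited (4607 higher and 6054 lower). At 2-fold 6 were higher and 0 lower. Suz12 kept its fall in every setting run (-2.67 to -2.83 without any 1 array).

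The replicate numbers of the 2 groups gave no sign of pairing: deviations from the group means correlated at 0.02, -0.04 and -0.06 for equal numbers. With so few arrays this cannot show that the experiments were unpaired. With the number as a replicate block, 9 member probe sets were higher, and 24 pathway genes were higher and 9 lower. Socs3 did not pass in that fit (adjusted p = 0.0607 from limma). Dim probe sets (Il6, 1 Lifr probe set) lie near the floor of the array and limit what can be said of the size of a change.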

Other observations

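Receptors of other class I and II cytokines, which use the same kinases, were set beside the IL-6 family. Of 21 listed, 16 were measured, and 4 were higher, 3 were lower and 9 did not pass, with a median log2 fold change of -0.09. These counts are near the shares over all genes, 17.1% higher and 23.3% lower. Ghr, the growth hormone receptor, had log2 values of 4.51, 4.05 and 4.11 in ShSuz12 cells, against 2.84, 2.84 and 2.98 in ShControl cells (adjusted p = 7.56e-05 from limma), and the ShControl values lay at the floor of the array. Lepr, the leptin receptor, whose long form signals through Jak2 and Stat3, had 4.79, 4.97 and 4.84 in ShSuz12 cells, against 5.35, 5.52 and 5.21 in ShControl cells. Its brightest probe set fell by 0.49 (limma, adjusted p = 0.00333), and 2 of its other 6 probe sets passed too, both lower. Even the brightest was dim, at percentile 31.7 in ShSuz12 cells and percentile 39.8 in ShControl cells, so the size of the fall is uncertain. The other members that passed, named after their values were seen, were Il4r (0.48), Ifngr2 (0.33) and Epor (0.19), which rose, and Ifngr1 and Il10rb, which fell by 0.38 and 0.21. The paired chains of the interferon gamma receptor, Ifngr1 and Ifngr2, therefore moved in opposite directions, and those of the type I receptor, Ifnar1 and Ifnar2, had -0.14 and -0.08 and did not pass (adjusted p = 0.132 and 0.463).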
